A study of Mus musculus with 15 samples.

Results

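The genes described here encode the precursors of the striatal neuropeptides that lie outside the opioid family. They were taken by symbol: Tac1, Sst, Npy, Cartpt, Cck, Nts and Adcyap1. Of these 7 genes, 6 had a row among the 15569 genes of the expression table, and Adcyap1 was not analysed here. RNA was sequenced from the striatum of mouse pups of the C57Bl/6J strain, taken at postnatal day 14, whose dams had been exposed to aerosols while pregnant. There were 3 libraries from paraquat exposure, 4 from exposure to TiO2 nanoparticles, 4 from exposure to the mixture of both and 4 from untreated controls. Paraquat is a redox-cycling herbicide, and TiO2 (titanium dioxide) nanoparticles are a manufactured white pigment material. The sources used here give no dose, exposure days, litter, dam or sex, and nothing states that libraries came from separate animals. The p-values therefore measure only the spread between these libraries, which may be technical.

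Neuropeptides are cut from larger precursors in the secretory pathway, stored in dense-core vesicles and released to act on G protein-coupled receptors. In the striatum, Tac1 encodes the precursor of substance P and neurokinin A and is made by the projection neurons of the direct pathway, which carry the dopamine receptor Drd1. Sst and Npy encode somatostatin and neuropeptide Y, which are made together by a sparse class of interneurons that also contain the nitric oxide synthase Nos1. Nts encodes neurotensin, a peptide of some projection neurons that is regulated by dopamine. Cartpt encodes the precursor of the CART peptides, which is best known from the nucleus accumbens and the hypothalamus. Cck encodes cholecystokinin, whose main forebrain source is the cortex, including its glutamatergic neurons.

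The libraries held 8690925 to 14207513 reads assigned to genes, paraquat library 3 being the deepest and the next holding 9804609. Genes that define striatal projection neurons were abundant, as the tissue label says: over the 15 libraries the mean normalised read count was 10106 for Ppp1r1b, 2873 for Drd1 and 2641 for Drd2. The normalised read count is the number of reads divided by a size factor of the library. Markers of cortical glutamatergic neurons were also present, and their level differed between libraries. Of 14 such markers 11 were in the table and Neurod1, Bhlhe22 and Emx1 were not. Their summed normalised read count was 3342 to 7113 in paraquat, 2997 to 4315 in TiO2, 4284 to 6015 in mixture and 2438 to 3760 in control libraries. Paraquat 2, mixture 1 and mixture 4 stood highest, and several results below are also given without them. The vesicular glutamate transporter Slc17a7, which defines these neurons, was at 203 or more in every library.

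The start regions of Cartpt, Sst and Tac1 are shown because these are the genes whose level differed after paraquat (below). Each runs from 250 bases before the transcription start site to 50 bases after it, from RefSeq on GRCm38.p6, 5′ to 3′ on the gene's strand. Capitals mark the cAMP response element, TGACGTCA, the binding sequence of the transcription factor CREB, which was characterised in the rat somatostatin gene. Cartpt lies on the minus strand (chr13:99900634-99900933), Sst on the minus strand (chr16:23890795-23891094) and Tac1 on the plus strand (chr6:7554811-7555110).
Cartpt: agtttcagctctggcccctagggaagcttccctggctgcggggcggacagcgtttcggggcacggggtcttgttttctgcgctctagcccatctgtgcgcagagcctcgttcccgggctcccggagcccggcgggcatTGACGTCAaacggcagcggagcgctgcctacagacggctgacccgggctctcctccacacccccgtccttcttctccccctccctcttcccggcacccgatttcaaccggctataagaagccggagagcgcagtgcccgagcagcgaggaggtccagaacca
Sst: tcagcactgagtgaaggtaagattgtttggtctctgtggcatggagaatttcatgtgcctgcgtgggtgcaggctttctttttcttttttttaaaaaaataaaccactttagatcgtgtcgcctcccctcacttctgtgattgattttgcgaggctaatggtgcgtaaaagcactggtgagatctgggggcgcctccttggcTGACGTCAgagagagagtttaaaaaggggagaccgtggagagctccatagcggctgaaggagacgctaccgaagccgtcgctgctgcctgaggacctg
Tac1: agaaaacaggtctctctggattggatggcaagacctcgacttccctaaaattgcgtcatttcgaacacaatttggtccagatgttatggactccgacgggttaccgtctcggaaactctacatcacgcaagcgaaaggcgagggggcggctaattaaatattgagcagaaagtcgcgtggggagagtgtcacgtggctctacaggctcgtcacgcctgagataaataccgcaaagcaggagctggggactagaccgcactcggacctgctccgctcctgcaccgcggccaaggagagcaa
The element began 112 bases before the start site in Cartpt and 48 bases before it in Sst. It was searched on both strands, and 588 of 32851 RefSeq promoters of that length held it, a share of 1.79%. The same search for AP-1 (TGANTCA, in 7.81% of promoters), TATAAA (13.6%) and the EGR element (GCGTGGGCG, 0.612%) found a single match among the 6 genes, an AP-1 sequence in Nts 207 bases before its start site. The windows of Tac1, Npy and Cck held none of these letter strings. A match is a description of letters and says nothing about binding.

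Compared per kilobase of exon, the precursors spanned a wide range of levels. The length used is the union of all annotated exons, 3399 bases for Tac1, 721 for Sst and 566 for Npy. This can exceed the length of the transcript that is made. In control striatum the order was Npy (5978 ± 505 normalised reads per kb), Sst (3178 ± 380), Tac1 (1091 ± 110), Nts (481 ± 55.1), Cck (324 ± 118) and Cartpt (14.8 ± 5.31, all SD, n = 4). Neighbours in this order did not overlap between the control libraries, except Nts at 421 to 548 and Cck at 196 to 462 per kb. In mixture libraries that pair changed places: Cck had 505 to 1016 per kb and Nts 355 to 474. In paraquat libraries the mean of Cck (568 per kb) also exceeded that of Nts (450), but their ranges overlapped. Paraquat 2 stood highest there, with Cck at 1083 per kb. Without regard to length, Tac1 had the highest mean in control libraries, 3710 ± 375 normalised reads (SD). Npy had 3383 ± 286 and Sst 2292 ± 274, so the order of these genes depends on the length used. The rank of each gene among all genes, by its mean over the 15 libraries without regard to length, ran from the percentile 98.2 for Npy and 97.8 for Tac1 to 15.1 for Cartpt. Cartpt rests on 13 to 63 reads a library, so its values carry the largest counting error.

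**Figure D1:**
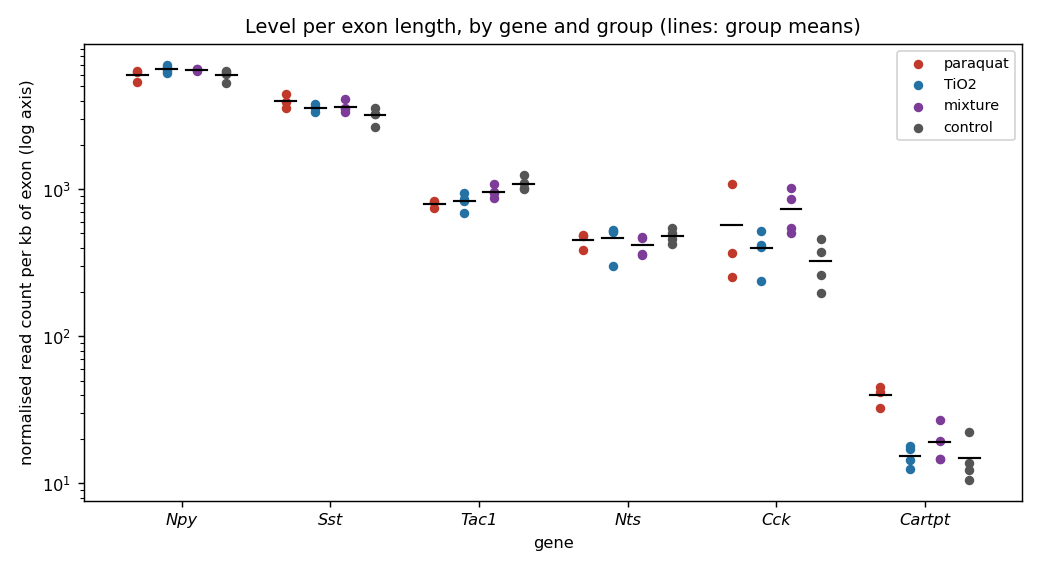
Level of the 6 neuropeptide genes per kilobase of exon (normalised read count per kb, log axis), with a point for each library and a line at each group mean, for paraquat, TiO2, mixture and control. Npy, Sst and Tac1 keep their order in every group, and Cartpt lies lowest throughout. Cck lies above Nts in the mixture group at 505 to 1016 against 355 to 474 per kb, and by its mean alone in the paraquat group.

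Against control, 3 of the 6 genes passed the test after paraquat, 1 after TiO2 and none after the mixture. After paraquat Cartpt and Sst were higher and Tac1 was lower, where 6.34% and 4.06% of all genes were called higher and lower. After TiO2 Tac1 was lower, as were 2.1% of all genes. The test was limma on log2(value + 1) over 15556 genes with Benjamini-Hochberg adjustment and a threshold of 0.05. Over all genes tested, 10.4% were called after paraquat, 6.4% after TiO2 and 1.19% after the mixture. For the mixture, 2 of the 6 genes, Sst and Cck, had an unadjusted p under 0.05 by limma, and neither edgeR nor DESeq2 called any. The median log2 difference of the 6 genes was 0.17, 0.12 and 0.16 in the paraquat, TiO2 and mixture comparisons, and the median of all genes was −0.01 in each. The 3 comparisons share the 4 control libraries. Adding 1 before the logarithm makes the fold changes of low genes such as Cartpt smaller than they are, and ± after a log2 value is the standard error of the fit.

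**Figure D2:**
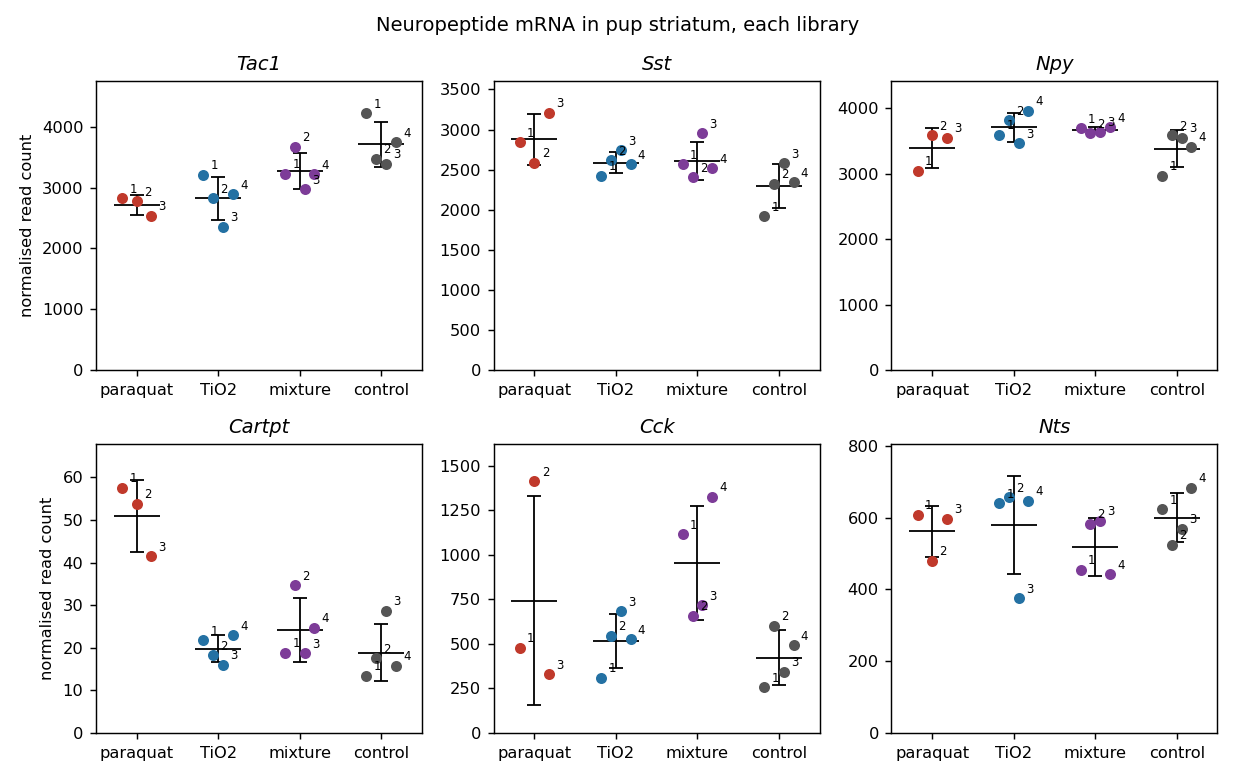
Normalised read count of each neuropeptide gene in every library, by group, with library numbers beside the points, the group mean as a horizontal line and the SD as a bar. All 3 paraquat libraries lie above every other library for Cartpt (41.5 to 57.6), and all 4 control libraries lie above every paraquat and TiO2 library for Tac1.

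Tac1 was lower after either agent alone than in control striatum. Its normalised read counts were 2827, 2780 and 2536 in paraquat libraries, against 3396, 3474, 3744 and 4226 in control libraries. No paraquat library reached the lowest control library. The difference was −0.45 ± 0.10 on the log2 scale (limma adjusted p = 0.0059), a level 26.6% below control. In TiO2 libraries the counts were 2356, 2824, 2895 and 3213. These also lay below every control library, with a log2 difference of −0.40 ± 0.09 (limma adjusted p = 0.00979). In mixture libraries the counts were 2974, 3217, 3228 and 3669. They overlapped with control, and the log2 difference of −0.18 ± 0.09 did not pass (limma adjusted p = 0.431, interval −0.37 to 0.01). For groups that do not overlap, the share over all genes was 21.2% for paraquat and 12.5% for TiO2 against control. Both calls held under every alternative fit that was run, with an adjusted p of at most 0.0361 for paraquat and 0.0492 for TiO2. In bulk tissue, fewer cells of a type and less RNA per cell cannot be told apart.

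Direct-pathway markers other than Tac1 give the surroundings of this difference. Of 9 such markers, 2 fell after paraquat, the transcription factors Isl1 (189 ± 8.14 in paraquat and 269 ± 11.8 in control, log2 −0.50 ± 0.12, limma adjusted p = 0.00861) and Ebf1 (525 ± 27.6 and 658 ± 33.7), and 7 did not pass. The call of Ebf1 ended without control 1 or 4 or any paraquat library, with an adjusted p of at most 0.0921, and after removal of the GC trend described below (0.11). It also ended without paraquat 2, mixture 1 and mixture 4 together. After TiO2 or the mixture none of the 9 passed by limma, edgeR or DESeq2, with 1 and 2 of them at an unadjusted p under 0.05. Over all 14 general markers of medium spiny projection neurons, 5 fell after paraquat and 1 after TiO2, the retinoic acid receptor gene Rarb in both (log2 −0.49 ± 0.08 and −0.38 ± 0.07). None of the 14 passed after the mixture by limma or edgeR, although 3 had an unadjusted p under 0.05 and DESeq2 called 1, and 0 of the 14 had a log2 difference above 0. The summed level of the 14 was 104294 to 114812 in paraquat, 115285 to 124745 in TiO2, 102499 to 114546 in mixture and 119582 to 125947 in control libraries. Every paraquat and mixture library thus lay below every control library on this sum, while Tac1 in mixture libraries overlapped with control. The correlation of Tac1 with the mean log2 level of the 14 was r = 0.51 (Spearman rho 0.45, permutation adjusted p = 0.128 and 0.175 over 30 relations). Of 8 indirect-pathway markers 7 were in the table, of which 1 rose and 1 fell after paraquat. The summed level of the direct-pathway list was 8556 to 8886 in paraquat, 8196 to 9758 in TiO2, 9143 to 9280 in mixture and 8611 to 10013 in control libraries. Over the 15 libraries Tac1 followed the mean log2 level of that list with r = 0.68 (Spearman rho 0.73, permutation adjusted p = 0.0494 and 0.0456 over 30 relations). Without TiO2 3 and paraquat 2, the libraries farthest from the median, r was 0.51, and the part of these cells in the Tac1 difference was not tested.

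Of the 2 interneuron peptides, Sst passed after paraquat and Npy did not, and their differences were not tested against each other. Sst had 2838, 2584 and 3212 normalised reads in paraquat libraries, against 1920, 2325, 2340 and 2581 in control libraries. The groups did not overlap, but the normalised counts of paraquat 2 and control 3 were nearly equal. The log2 difference was 0.33 ± 0.10 (limma adjusted p = 0.0291), or 25.8% above control. TiO2 libraries had 2424, 2565, 2615 and 2740, and mixture libraries 2408, 2515, 2567 and 2956. Both groups overlapped with control, and their log2 differences of 0.18 ± 0.09 and 0.19 ± 0.09 did not pass (limma adjusted p = 0.22 and 0.371). The paraquat call of Sst ended when control 1 (limma adjusted p = 0.111), control 4 (0.0502), paraquat 1 (0.0804) or paraquat 3 (0.149) was left out. It also ended in a fit of the compared groups alone (0.0606) and after removal of the GC trend described below (log2 0.16, adjusted p = 0.22).

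Npy did not pass in any comparison with control. It had 3046, 3594 and 3550 normalised reads in paraquat, 3599, 3820, 3471 and 3967 in TiO2, 3697, 3622, 3646 and 3709 in mixture and 2970, 3592, 3555 and 3417 in control libraries. The mixture libraries lay close together (SD 41.2) and all above the highest control library, which held for 7.75% of all genes in either direction. The log2 differences after paraquat, TiO2 and the mixture were 0.01 ± 0.08, 0.14 ± 0.08 and 0.12 ± 0.08 (limma adjusted p = 0.975, 0.282 and 0.56). The interval for paraquat ran from −0.16 to 0.17. Across the 15 libraries Sst and Npy, which a class of striatal interneurons makes together, had r = 0.31 (Spearman rho 0.07, permutation p = 0.246, adjusted p = 0.5 over 15 pairs).

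Of 20 other genes listed for striatal interneurons 17 were in the table. They include Gad1, which GABA neurons in general express, projection neurons among them. After paraquat 2 rose, the transcription factor Sox6 (log2 0.49 ± 0.10, 728 ± 15.8 in paraquat and 521 ± 66 in control) and Cox6a2, and 15 did not pass. Cox6a2, at 44.1 ± 8.16 in paraquat and 20.7 ± 10.3 in control libraries, lost its call without control 1 or any paraquat library (adjusted p of at most 0.121). It also lost that call without the 3 libraries highest for cortical markers. After TiO2 Sox6 rose (log2 0.40 ± 0.09) and 16 did not pass. None passed after the mixture by limma, edgeR or DESeq2, with 2 at an unadjusted p under 0.05. The summed level of the list was 7420 to 9539 in paraquat, 7950 to 8199 in TiO2, 7388 to 8701 in mixture and 7499 to 8271 in control libraries. Sst followed the mean log2 level of the list with r = 0.70 (Spearman rho 0.58, permutation adjusted p = 0.0494 and 0.109 over 30 relations). That relation rests on paraquat 3 and control 1, without which r was 0.29.

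Cartpt showed the largest difference among the 6 genes that passed. It had 57.6, 53.8 and 41.5 normalised reads in paraquat libraries, against 13.5, 15.7, 17.5 and 28.7 in control libraries. Every paraquat library lay above the 12 others, the nearest being mixture 2 at 34.7. The log2 difference was 1.43 ± 0.26 (limma adjusted p = 0.00163), a 2.69-fold higher level on that scale, with an interval of 0.89 to 1.96. In reads, paraquat libraries held 58, 53 and 63 and control libraries 13, 16, 17 and 27. TiO2 libraries had 16.1, 18.3, 21.8 and 22.9 normalised reads, within the control range, and a log2 difference of 0.11 ± 0.24 (limma adjusted p = 0.833). Mixture libraries had 18.7, 18.8, 24.7 and 34.7 and a log2 difference of 0.36 ± 0.24 (limma adjusted p = 0.6). The paraquat call held under every alternative fit that was run, with an adjusted p of at most 0.0145.

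Markers of other brain regions were examined beside this value, among them the hypothalamus and the ventral striatum, which also express Cartpt. Of 11 hypothalamic markers 3 were in the table, and Oxt, Avp, Pmch, Hcrt, Agrp, Pomc, Sim1 and Otp were not. The 3 were Trh, Nkx2-1 and Six3os1, and Nkx2-1 is also on the interneuron list above. None of the 3 passed after paraquat by limma, edgeR or DESeq2, and 0 had an unadjusted p under 0.05. So few genes cannot show whether hypothalamic RNA was present. Of 8 markers of the ventral and medial striatum 7 were in the table, and after paraquat Crym alone passed, in the lower direction (log2 −0.40 ± 0.10), a call that ended without paraquat 3 (adjusted p = 0.059). The summed level of these 7 was 4525 to 6335 in paraquat, 4560 to 5197 in TiO2, 5093 to 6092 in mixture and 4380 to 6337 in control libraries. The thalamus list was examined too, and its relation to Cartpt over the libraries was not tested. All 8 thalamic markers were in the table, and after paraquat 2 rose (Slc17a6 and Ramp3), 1 fell (Rora) and 5 did not pass. The mean log2 level of the 8, relative to the control mean, was 0.24 to 0.56 in paraquat, −0.075 to 0.26 in TiO2, 0.20 to 0.40 in mixture and −0.34 to 0.19 in control libraries. Every paraquat and mixture library lay above every control library on this measure, while the summed count, at 2177 to 2563 in paraquat and 2065 to 2446 in control libraries, overlapped. Cartpt itself overlapped between mixture and control libraries.

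Slc17a6, a vesicular glutamate transporter of thalamic and other subcortical neurons, had 42.6, 57.6 and 65.8 normalised reads in paraquat, 7.26, 18.9, 19.1 and 29.5 in TiO2, 31.7, 43.7, 61.7 and 72.7 in mixture and 2.07, 10.6, 19.6 and 19.7 in control libraries. It lay above control in all paraquat and all mixture libraries. The log2 difference after paraquat was 2.32 ± 0.60 (limma adjusted p = 0.0281), a call that ended without control 3 or paraquat 1 or 3 (adjusted p of at most 0.0998). The calls of Ramp3 and Rora each ended without at least 5 libraries in turn. Without the 3 libraries highest for cortical markers, the paraquat calls of Slc17a6, Ramp3 and Rora all ended. Of 8 claustrum and amygdala markers 7 were in the table, and after paraquat 1 rose, 1 fell and 5 did not pass. The part of RNA from neighbouring regions in the Cartpt difference was not tested. No relation of Cartpt to the 5 marker lists of striatal and cortical cells passed over the 15 libraries (permutation adjusted p of at least 0.105).

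Cck varied most from library to library. It had 331, 478 and 1413 normalised reads in paraquat, 310, 527, 545 and 682 in TiO2, 658, 716, 1116 and 1325 in mixture and 256, 343, 491 and 603 in control libraries. The 3 highest values, in paraquat 2, mixture 4 and mixture 1, belonged to the 3 libraries with the most cortical marker RNA. All 4 mixture libraries lay above all control libraries, with a log2 difference of 1.18 ± 0.46 (interval 0.18 to 2.19) that did not pass (limma adjusted p = 0.307). For paraquat the log2 difference was 0.60 ± 0.49 and for TiO2 0.31 ± 0.46 (limma adjusted p = 0.484 and 0.739). Without paraquat 2 the paraquat value was −0.012, and without the 3 libraries the mixture value was 0.77.

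Cck and the cortical markers moved together across libraries. The mean log2 level of the 11 cortical markers, relative to the control mean, was 0.31, 1.69 and 0.46 in paraquat libraries 1 to 3, −0.22, 0.41, 0.83 and 0.57 in TiO2, 1.26, 0.73, 0.91 and 1.48 in mixture and −0.61, 0.28, 0.21 and 0.11 in control libraries. All mixture libraries lay above all control libraries on this measure too. The correlation with Cck was r = 0.94 over the 15 libraries (Spearman rho 0.90, permutation adjusted p = 0.0003 for r over 30 relations, from the smallest p that 1e+05 resamples can give, 1e-05). It was 0.90 without paraquat 2 and control 1, and 0.92 for deviations from the group means. Of the 11 markers, 3 rose after paraquat, and none passed after the mixture by limma or edgeR although 9 had an unadjusted p under 0.05 and DESeq2 called 4. None passed after TiO2 by limma, edgeR or DESeq2, with 1 at an unadjusted p under 0.05. The part of cortical RNA in the Cck values was not tested beyond these measurements.

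**Figure D3:**
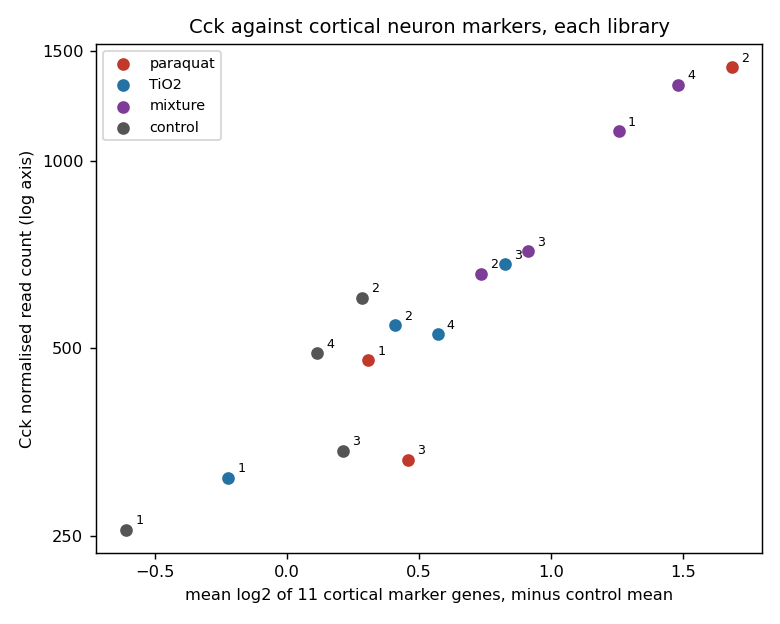
Cck normalised read count (log axis) against the mean log2 level of 11 cortical marker genes minus the control mean, with a numbered point for each of the 15 libraries. The points form a rising band (r = 0.94) from control 1 at −0.61 to paraquat 2 at 1.69, with all mixture points to the right of all control points.

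Nts did not pass in any comparison with control. It had 480, 597 and 608 normalised reads in paraquat, 376, 640, 647 and 657 in TiO2, 443, 456, 584 and 592 in mixture and 525, 569, 624 and 684 in control libraries. The groups overlapped, and TiO2 3 lay apart from its group at the low end. The log2 differences were −0.10 ± 0.17, −0.08 ± 0.16 and −0.22 ± 0.16 after paraquat, TiO2 and the mixture (limma adjusted p = 0.762, 0.811 and 0.645). Across libraries Nts ran against the cortical markers with r = −0.65 (Spearman rho −0.64, permutation adjusted p = 0.0494 and 0.0888 over 30 relations), a relation that kept its size without paraquat 2 and control 1 (r = −0.67). Its r with the direct-pathway list was 0.67 (permutation adjusted p = 0.0494), which fell to 0.33 without TiO2 3 and paraquat 2. The Spearman rho of that relation, 0.44, did not pass (permutation adjusted p = 0.175).

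The mixture did not show the sum of the effects of its components for 2 of the 6 genes. The test is the interaction, the mixture difference from control less the sum of the paraquat and TiO2 differences. Over all genes 11.8% passed it, 5.41% higher and 6.36% lower. For Tac1 the paraquat and TiO2 differences added to −0.84, and the mixture differed from control by −0.18, an interaction of 0.66 ± 0.13 (limma adjusted p = 0.00377). The Tac1 interaction passed in every alternative fit that was run. For Cartpt the sum was 1.54 and the mixture difference 0.36, an interaction of −1.18 ± 0.35 (limma adjusted p = 0.0325). The Cartpt interaction ended without any of 8 libraries (control 1 or 4, paraquat 1 or 2, TiO2 1 or mixture 1, 3 or 4), with adjusted p up to 0.0921. It also ended after removal of the GC trend (0.0813) and without the 3 libraries highest for cortical markers (0.165). The interaction of Sst was −0.32 ± 0.13 (limma adjusted p = 0.106), and those of Npy, Cck and Nts were −0.02 ± 0.11, 0.28 ± 0.67 and −0.04 ± 0.23.

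**Figure D4:**
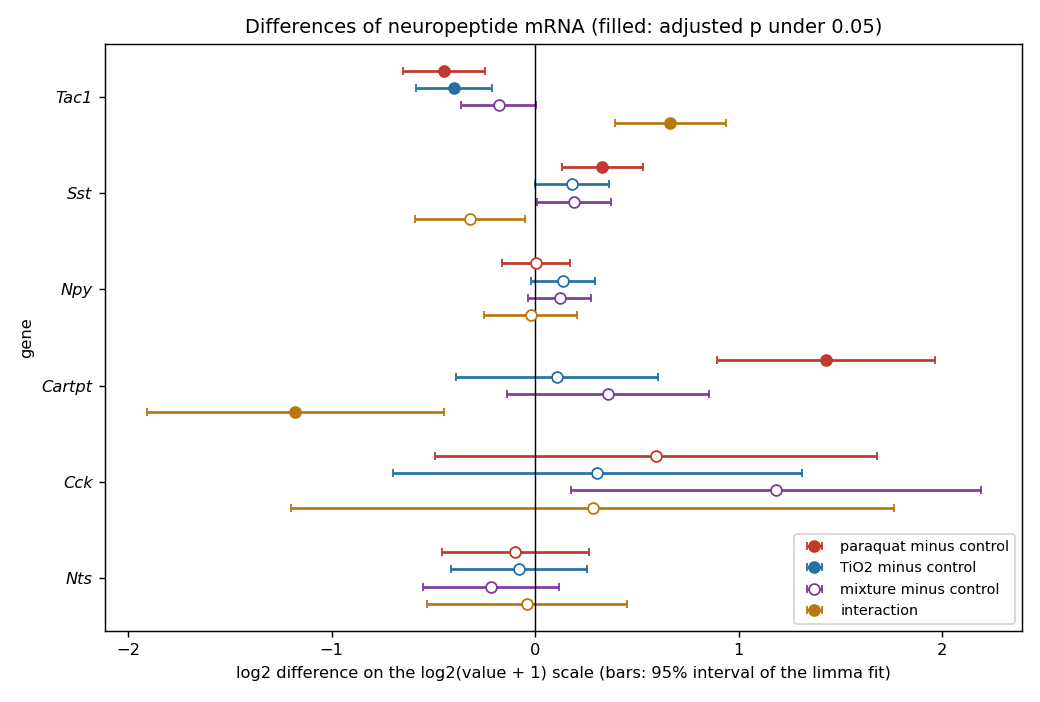
Log2 difference from control of each neuropeptide gene after paraquat, TiO2 and the mixture, and the interaction, with the 95% interval of the limma fit as a bar and filled points where the adjusted p was under 0.05. Filled points are Tac1 for paraquat, TiO2 and the interaction, Sst for paraquat, and Cartpt for paraquat and the interaction at 1.43 and −1.18.

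Between exposures no difference of a neuropeptide gene passed limma. In the comparison of mixture with paraquat 2 of the 6 genes had an unadjusted p under 0.05, edgeR and DESeq2 called none, and 0.00643% of all genes were called. Cartpt was lower in mixture than in paraquat libraries by a log2 difference of −1.07 ± 0.26 (limma adjusted p = 0.128), and Tac1 was higher by 0.27 ± 0.10 (limma adjusted p = 0.237). Neither gene overlapped between these groups, and nor did Npy, which was higher in mixture (3622 to 3709) than in paraquat (3046 to 3594) libraries. Over all genes 13.8% did not overlap there. In the comparison of paraquat with TiO2 no gene passed by limma or edgeR (0% of all genes, with 997 at an unadjusted p under 0.05), and DESeq2 called 15. Cartpt stood 4th by p there, with a log2 difference of 1.32 ± 0.26 (limma adjusted p = 0.119), and DESeq2 called it (adjusted p = 0.00863). The paraquat and TiO2 libraries did not overlap for Cartpt, as for 5.81% of all genes. The Tac1 levels after paraquat and after TiO2 differed by −0.05 ± 0.10, with an interval of −0.25 to 0.15. In the comparison of mixture with TiO2 no gene passed by limma or edgeR (0% of all genes, with 1768 at an unadjusted p under 0.05), while DESeq2 called 55 but none of the 6. The largest member difference there was Cck at 0.88 ± 0.46 (limma adjusted p = 0.49).

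Tac1 and Sst ran in opposite directions from library to library. Of the 15 pairs among the 6 genes this was the single pair to pass, with r = −0.83 (Spearman rho −0.83, permutation adjusted p = 0.00285 for each). Without TiO2 3 and control 1 r was −0.80, and for deviations from the group means it was −0.81. Cck and Nts had r = −0.65 (adjusted p = 0.0645).

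The GC trend of a library is the correlation, across genes, of its deviation from the mean of all libraries with transcript GC content, and Tac1 and Sst both moved with it. It was 0.33, 0.018 and 0.27 in paraquat, 0.048, 0.19, 0.45 and −0.12 in TiO2, 0.058, −0.27, 0.085 and −0.28 in mixture and −0.38, 0.072, −0.16 and −0.35 in control libraries. The transcript of Tac1 has 42.8% GC and that of Sst 56.0%. The trend was related to Tac1 with r = −0.85 (Spearman rho −0.77, permutation adjusted p = 0.00072 and 0.00474 over 6 relations) and to Sst with r = 0.70 (rho 0.76, adjusted p = 0.00687 and 0.00474). Without control 1 and TiO2 3 these were −0.74 and 0.65, and for deviations from the group means −0.70 and 0.59. For the other 4 genes no relation to it passed (adjusted p of at least 0.521). Once each library's trend with GC content had been subtracted, Tac1 kept its calls for paraquat, TiO2 and the interaction, Sst lost its call, and the relation of Tac1 to Sst was r = −0.63 (adjusted p = 0.0857), or −0.30 without control 1 and 2. Over all alternative fits other than leaving out a single library, the Tac1 log2 differences were as small as −0.33 for paraquat, −0.29 for TiO2 and 0.48 for the interaction. In the main fit they were −0.45, −0.40 and 0.66. The part of library composition in these values was not tested further.

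**Figure D5:**
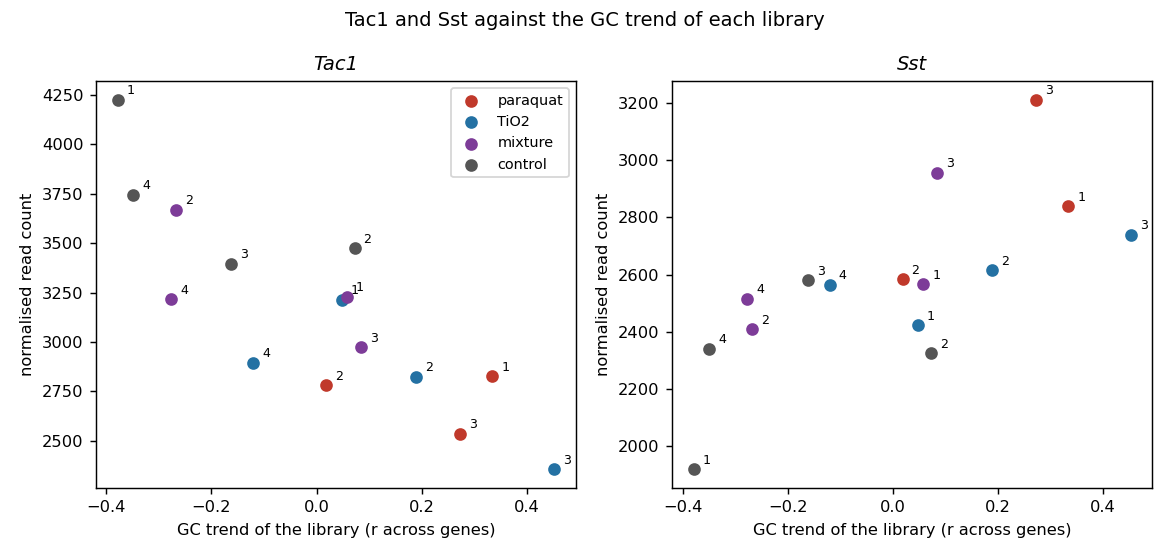
Normalised read counts of Tac1 and Sst against the GC trend of each library (r across genes), with a numbered point for each of the 15 libraries. Tac1 falls (r = −0.85) and Sst rises (r = 0.70) along the axis, with control 1 and control 4 at the left end and TiO2 3 at the right.

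Among the receptors of these peptides, Cckbr, the main brain receptor of cholecystokinin, showed the largest difference. Of 21 receptor genes 15 were in the table. After paraquat 2 rose and 13 did not pass. Cckbr averaged 133 ± 62.6 in paraquat and 48.7 ± 12.3 in control libraries (log2 1.37 ± 0.31, limma adjusted p = 0.0134). Ntsr1, a neurotensin receptor, averaged 40.0 ± 7.48 and 22.1 ± 7.80 (log2 0.87 ± 0.27, limma adjusted p = 0.0405). After the mixture 2 rose and 13 did not pass: Cckbr at 120 ± 36.4 (log2 1.28 ± 0.29, limma adjusted p = 0.0429) and the somatostatin receptor Sstr2 at 341 ± 47.7 in mixture and 215 ± 31.5 in control libraries (log2 0.66 ± 0.13, limma adjusted p = 0.0139). After TiO2 none passed by limma, edgeR or DESeq2, with 2 at an unadjusted p under 0.05. The medians of the 15 receptors were 0.20, 0.04 and 0.09 for paraquat, TiO2 and the mixture.

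Both Cckbr and Ntsr1 are expressed by cortical neurons. The 3 libraries highest for cortical markers were also the highest for Cckbr, at 204 in paraquat 2, 155 in mixture 1 and 147 in mixture 4. Without those libraries the Cckbr and Sstr2 calls for the mixture (adjusted p = 0.0958 and 0.128) and the Ntsr1 call for paraquat (0.121) ended, while Cckbr kept its call for paraquat. Cckbr kept that call without any library in turn. The Cckbr mixture call ended without control 1, 2 or 4 or mixture 1, 3 or 4, that of Sstr2 without control 1 or 2 or mixture 1 or 3, and that of Ntsr1 without any library except control 2. The highest adjusted p was 0.124, 0.0538 and 0.13. By edgeR the Cckbr mixture call ended as well (adjusted p = 0.0637). Removal of the GC trend ended it too (limma adjusted p = 0.0809), and also the Ntsr1 call (0.0966). The part of cortical RNA in these receptor differences was not tested.

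Few other non-opioid neuropeptides were in the table, 8 of 44. Crh, the corticotropin-releasing hormone gene, rose after paraquat (61.3 ± 21.5 in paraquat and 30.0 ± 4.29 in control libraries, log2 0.96 ± 0.22, limma adjusted p = 0.00877). Its values were 44.7, 53.8 and 85.6 in paraquat libraries, against 24.5 to 34.2 in control libraries, and the call ended without paraquat 3 (adjusted p = 0.0811). The other 7 did not pass after paraquat. After TiO2 and after the mixture none of the 8 passed by limma or edgeR, with 1 and 4 at an unadjusted p under 0.05, and DESeq2 called 1 in each.

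Genes of peptide processing and of dense-core vesicles include the chromogranins, which load the vesicles, and the prohormone convertases, which cut the precursors. All 16 of the list were in the table. After paraquat 3 rose, 1 fell and 12 did not pass. After TiO2 3 rose and 13 did not pass, and after the mixture 2 rose and 14 did not pass. Chga (chromogranin A) averaged 811 ± 235 in paraquat, 864 ± 81.1 in TiO2, 778 ± 67.7 in mixture and 400 ± 28.5 in control libraries. Its log2 differences from control were 0.98 ± 0.13, 1.11 ± 0.12 and 0.96 ± 0.12 (limma adjusted p = 8.16e-05, 3.84e-06 and 8.75e-05), and the calls held in every alternative fit that was run. Its interaction was −1.13 ± 0.17 (limma adjusted p = 0.000606).

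Pcsk1n, which encodes an inhibitor of the convertase PC1, averaged 1773 ± 387 in paraquat, 1492 ± 293 in TiO2, 1296 ± 212 in mixture and 926 ± 140 in control libraries. It passed for paraquat and TiO2 (log2 0.92 ± 0.17 and 0.68 ± 0.16), the TiO2 call ending without control 1 or 2 or TiO2 3. Vgf, a granin-like peptide precursor, rose by 0.35 ± 0.11 after paraquat and 0.40 ± 0.10 after TiO2 on the log2 scale. Both Vgf calls ended after removal of the GC trend (limma adjusted p = 0.583 and 0.139) and without several libraries in turn (up to 0.204 and 0.0728). Pcsk1, the convertase PC1 itself, was lower after paraquat at 235 ± 46.9 against 308 ± 37.9 in control libraries (log2 −0.40 ± 0.13, limma adjusted p = 0.0446). That call ended under 7 alternatives (up to 0.25). Chgb (chromogranin B) rose after the mixture (log2 0.38 ± 0.09, limma adjusted p = 0.0386), a call that ended without any library except control 2. It also ended after removal of the GC trend and without the 3 libraries highest for cortical markers. For the interaction 1 gene of this list was higher (Pcsk1, 0.76 ± 0.17) and 3 were lower (Chga, Pcsk1n and Vgf). The Vgf interaction ended after removal of the GC trend (limma adjusted p = 0.485).

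Activity-regulated genes, which neurons induce when stimulated, and genes of the CREB pathway were examined beside the peptides. Whether CREB acts at the letter matches shown above in Cartpt and Sst was not tested. All 14 activity-regulated genes were in the table. After paraquat Btg2 (log2 0.72 ± 0.18) and Fos (0.93 ± 0.24) rose and 12 did not pass. After TiO2 5 rose, Egr1 (0.88 ± 0.16), Fosl2 (0.49 ± 0.12), Egr2 (0.68 ± 0.19), Fos (0.79 ± 0.22) and Egr4 (0.65 ± 0.18). After the mixture 3 rose, Fosl2 (0.63 ± 0.12), Fos (1.11 ± 0.22) and the neurotrophin gene Bdnf (1.13 ± 0.28). None fell in any of the 3 comparisons. Egr1, at 5433 ± 562 in TiO2 and 2968 ± 490 in control libraries, kept its TiO2 call without any library in turn (limma adjusted p of at most 0.0349). So did Fosl2 for the mixture (0.042), although not without the 3 libraries highest for cortical markers (0.0536). The paraquat calls of Btg2 and Fos ended without paraquat 3 (0.0514 and 0.0947). The calls of Egr2, Egr4, Fos and Fosl2 for TiO2, and of Fos and Bdnf for the mixture, also ended without at least 2 libraries in turn, with adjusted p of at most 0.176. Without the 3 libraries highest for cortical markers the Bdnf call ended too (limma adjusted p = 0.222).

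Of 13 CREB pathway genes, all in the table, 2 fell after paraquat, both subunits of protein kinase A: Prkacb (log2 −0.27 ± 0.07) and Prkar2b (−0.43 ± 0.12). After TiO2 the coactivator Crtc3 rose (0.39 ± 0.10), and after the mixture none passed by limma or edgeR, with 3 at an unadjusted p under 0.05 and 1 called by DESeq2. Creb1 itself was not called in any of the 3. The calls of Prkacb without paraquat 1 (limma adjusted p = 0.0507), of Prkar2b without control 1, 3 or 4 or paraquat 1 or 3 (up to 0.128) and of Crtc3 without control 1 or 3 or TiO2 3 (up to 0.0965) ended.

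The genes whose level over the 15 libraries was most like that of each neuropeptide gene were sought among 11611 others with a mean of at least 50 normalised reads, by Pearson r of log2(value + 1). For Cck they included Tbr1 (0.94) and Neurod6 (0.92), transcription factors of cortical glutamatergic neurons. For Tac1 they were Vps29 (0.95), Rsl1d1 (0.94) and Kcnab1 (0.94), and for Sst they included Adar (0.93) and Slc25a39 (0.93). For Npy they were Diras2 (0.87), Cmas (0.87) and Rnf19b (0.84), and for Nts Gpr139 (0.85), Abraxas2 (0.81) and Meis1 (0.81). For Cartpt they were Ntng1 (0.80), Lrfn1 (0.79) and Syn2 (0.78), which fell to 0.58, 0.52 and 0.31 for deviations from the group means. These are descriptions across libraries that share group and depth, and no gene was tested by them.

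In GRCm38, Tac1 lies on chromosome 6 (chr6:7554879-7565834), Npy on chromosome 6 (chr6:49822710-49829507), Sst on chromosome 16 (chr16:23889573-23890958), Cartpt on chromosome 13 (chr13:99898489-99901091), Cck on chromosome 9 (chr9:121489824-121495694) and Nts on chromosome 10 (chr10:102481756-102490486). All are annotated as protein coding, and none overlaps another annotated gene.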

How the data were processed

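Pup striatum RNA (NucleoSpin RNA II) was made into Lexogen SENSE libraries and sequenced on a NextSeq500, per the labels' protocols. Bowtie2 2.3.2.2, the build mm10 and DESeq2 2.1.8.3 are listed in the submitters' processing notes. For the read counter, annotation and use of strand the entry is: not given in the sources used here. The authors deposited a table of normalised signal, which the values show to be whole reads divided by a size factor of each library: 100% of values were whole within 0.001 after division by a step of 0.659 to 1.08. In 4 libraries the step was so near 1 that recovery is claimed for the other 11. All 15569 symbols matched GENCODE M21 on GRCm38, the assembly of mm10.

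The plan was written for normalised values, and limma 3.58.1 (R 4.3.3, trend and robust options) was fitted to log2(value + 1) of all 15 libraries with a mean per group. Of all genes 15556 passed filterByExpr (edgeR 4.0.16) and 13 did not. Alternatives were no filter, a pseudocount of 5, only the compared groups, the library number as a block, edgeR's quasi-likelihood test and DESeq2 1.42.0 on recovered reads (which called 1813 and 1966 genes for paraquat, 996 and 1183 for TiO2, 166 and 300 for the mixture), removal of a GC trend (natural spline, df 5), leaving out each library and, added after seeing the data, leaving out the 3 libraries highest for cortical markers. Correlations used two-sided permutation tests with 1e+05 resamples in SciPy 1.17.1. The fits were tested on simulated data. Within each group, every pair of libraries differed by more than counting noise (chi-square per degree of freedom 3.01 to 25.1). No molecular identifiers are described, so precision from depth covers counting error only. The members, gene lists and tests were chosen with earlier results of these data known. Named genes were all members, the called genes of the receptor, other peptide, processing, activity and CREB lists, and the 3 genes most like each member, of which some are not reported here. Marker genes, including Isl1, Ebf1, Rarb, Sox6, Cox6a2, Crym, Slc17a6, Ramp3 and Rora, were named after their values were seen.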

Additional observations from a re-analysis of the deposited data

Results flagged for a closer look

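Of 105 groups of 4 libraries checked for a library apart from the rest, over the members and the other named genes, 9 had one, and chance gives about 1 in 20. Among the members this was Nts in TiO2 3 at 376 normalised reads, where the other TiO2 libraries had 640 to 657. The log2 difference of Nts from control after TiO2 was 0.12 without that library and −0.08 with it. Ntsr1 in mixture 4 stood at 59.6 above 32.7 to 34.7 in the others, and Crh in TiO2 2 at 37.6 above 23.1 to 24.9. The others were Isl1 (168) and Rarb (3295) in mixture 3, Egr1 (3320) in mixture 4, Crtc2 (279) in TiO2 3, and Rora in mixture 2 (805) and in control 3 (682).

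The effect of paraquat differed with and without TiO2, by the interaction in the limma fit, for Tac1 by 0.66 and for Cartpt by −1.18 on the log2 scale. The same held for Chga (−1.13), Pcsk1 (0.76), Pcsk1n (−1.12), Vgf (−0.53), Isl1 (0.49), Sox6 (−0.69), Rarb (0.59), Btg2 (−0.76), Egr1 (−0.82), Prkar2b (0.71), Crtc2 (−0.59), Cox6a2 (−1.52) and Crym (0.58). For comparison, 11.8% of all genes passed this test. The calls of Cartpt, Vgf, Isl1, Btg2, Egr1 and Crtc2 ended without at least 5 libraries in turn. Each of these calls also ended after removal of the GC trend, with a limma adjusted p of 0.485 for Vgf. Without the 3 libraries highest for cortical markers, the interaction calls of Cartpt, Isl1, Btg2 and Prkar2b (limma adjusted p = 0.0507) ended. The interactions of Cox6a2 and Crym were not examined in the alternative fits.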

How the results depend on the processing

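The calls of Tac1 for paraquat, TiO2 and the interaction and of Cartpt for paraquat held in every alternative run. The number of members called was 2 to 3 for paraquat and 1 to 2 for the interaction when a library was left out. For the interaction it was 1 after removal of the GC trend, 1 without the 3 libraries highest for cortical markers and 1 by DESeq2, which gave Cartpt no adjusted p. For paraquat against TiO2 it was 1 by DESeq2.

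Genes called, where they moved, were as follows. For the mixture against control there were 185, and 290 with the replicate block, 300 by DESeq2 and 81 without the 3 libraries. For mixture against paraquat there was 1, and 8 with the compared groups alone (7 higher), 138 by DESeq2 (81 higher), 17 after removal of the GC trend (15 higher) and 0 without the 3 libraries. For mixture against TiO2 there were 0, and 5 with the block, 55 by DESeq2 and 1 after removal of the GC trend. For paraquat against TiO2 there were 0, and 3 with the block and 15 by DESeq2. For the interaction there were 1832, and 1125 after removal of the GC trend and 797 without the 3 libraries. Leaving out a library gave 665 to 1754 genes after paraquat, 467 to 1397 after TiO2, 52 to 164 after the mixture, 0 to 3 for mixture against paraquat, 0 to 14 for mixture against TiO2, 0 to 11 for paraquat against TiO2 and 883 to 2313 for the interaction.

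Small differences turned. For paraquat, after removal of the GC trend Npy was −0.10 and Nts 0.048, and without the 3 libraries Npy was −0.037, Cck −0.012 and Nts 0.012. Nts after TiO2 was 0.066 after removal of the GC trend. Leaving out a library gave −0.056 to 0.082 for Npy, −0.012 to 1.03 for Cck and −0.16 to 0.012 for Nts after paraquat, −0.028 to 0.32 for Cartpt and −0.15 to 0.12 for Nts after TiO2, and −0.13 to 0.016 for Tac1 in paraquat against TiO2. After removal of the GC trend 0 of the 15 pairs of members were related, against 1 before. The cause of these changes was not tested.

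Library numbers were shared between groups, but the 21 same-numbered pairs correlated from −0.19 to 0.27 in their deviations, and 4 of 15 libraries correlated best with their own number, so the numbers were not taken as pairs. The replicate block left the members called at 3, 1 and 0 for paraquat, TiO2 and the mixture and 2 for the interaction, and called 1482, 1354 and 1768 genes in paraquat, TiO2 and the interaction. Among the other named genes it ended the calls of Cckbr for the mixture (adjusted p = 0.0971), Pcsk1 (0.0621), Ramp3 (0.0547) and Vgf (0.0809) for paraquat and Egr4 for TiO2. Depth limits Cartpt most, at 13 to 63 reads a library.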
